A study of Homo sapiens with 8 samples.

Results

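The genes described here are 7 members of the vascular endothelial growth factor (VEGF) system, listed by name as a known axis of SRPK1 control, with earlier results of these data known: the ligands VEGFA, VEGFB, VEGFC and PGF, the co-receptors NRP1 and NRP2, and the receptor FLT1. They are 7 of the 60624 Ensembl genes that were counted, and were matched to symbols through GENCODE on GRCh38. Of these 7 genes, 6 had enough reads to be tested and FLT1 did not. RNA was sequenced from A549, an established human lung adenocarcinoma cell line, in 4 groups with 2 libraries each (8 libraries).

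Untreated A549 cells served as the control. Another group received indisulam, a molecular glue that brings the splicing factor RBM39 to the DCAF15 ubiquitin ligase for degradation. A further group received SPHINX31, an inhibitor of SRPK1, the kinase that phosphorylates serine- and arginine-rich splicing factors such as SRSF1. The study describes potential off-target activity of SPHINX31 and cites CLK1 and SRSF2 as further reported targets. Changes with SPHINX31 can therefore not be assigned to SRPK1 alone. The combination group received both agents. For this experiment the methods of the study give 0.5 µM indisulam, 5 µM SPHINX31 and 24 h. The sample labels instead give 2 µM indisulam for 18 h for every library. They do so for the untreated and SPHINX31 libraries too, so the labels cannot hold for all groups. In the methods, 2 µM and 18 h belong to the study's experiment on a pancreatic cancer cell line. The cells were grown in medium with serum and no oxygen level is stated. The 2 libraries of a group are technical replicates, so p-values measure only the spread between these libraries and not that between separate cultures.

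VEGF ligands are secreted proteins that bind receptor tyrosine kinases on blood and lymphatic endothelium. VEGFA binds FLT1 and KDR, and drives the sprouting and permeability of blood vessels mainly through KDR. VEGFB and PGF bind FLT1, and VEGFC acts mainly on lymphatic vessels through FLT4. The neuropilins NRP1 and NRP2 have no kinase domain, are shared with the class 3 semaphorins, and are also made by many epithelial tumor cells. SRPK1 is tied to this system through the last exon of VEGFA: phosphorylated SRSF1 is known to favor the proximal acceptor site of that exon, and the distal site gives a protein with another C terminus.

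Both coding ends of VEGFA are shown because the values below sum over them, so that the choice between the sites that SRPK1 is known to affect was not measured here. Lower-case letters are the 8 bases up to and including the AG of the acceptor, and capitals are the last 19 coding bases and the stop codon. In GRCh38 the proximal end lies at chr6:43784533-43784562 and the distal end at chr6:43784599-43784628, both on the plus strand. The acceptors are 66 bp apart, and 15 and 2 of the 20 coding transcripts in the annotation use the proximal and the distal end.
VEGFA proximal end: tccctcagATGTGACAAGCCGAGGCGGTGA
VEGFA distal end: ggaaccagATCTCTCACCAGGAAAGACTGA

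The libraries held 51727369 to 63186989 reads counted on genes. NRP1, the deepest of the 7 genes, had 15888 to 24536 reads in a library, and PGF, the shallowest of the 6 tested, had 32 to 79. The epithelial markers KRT7, KRT8, KRT18, CDH1 and EPCAM together reached 8409 to 9893 CPM (a gene's reads scaled to the TMM-adjusted total of its library). Nearly all of this sum came from the keratins, and it was lowest in the combination libraries (8409 and 8495 CPM, against 9808 and 9893 CPM in untreated cells). KRT7, KRT8, KRT18 and CDH1 were lower with the combination, whereas EPCAM was higher (31.1 and 33.6 CPM, against 27.6 and 27.5 CPM in untreated cells). The 7 endothelial markers together reached 1.71 to 2.69 CPM, nearly all from PECAM1, and CDH5, TEK, TIE1, VWF and ERG had at most 11 reads in any library. Leukocyte markers summed to 6.84 to 9.81 CPM, nearly all from CD14 (6.83 to 9.76 CPM), with CD3E at 0. Fibroblast markers summed to 3.23 to 4.71 CPM, nearly all from COL1A1 (3.23 to 4.65 CPM), with COL1A2 at no more than 1 read. CDKN2A, which is known to be deleted in A549, was read at 2.65 to 3.64 CPM and not at 0. CDKN2B, the other marker listed as deleted in A549, was read at 0.883 to 1.85 CPM (45 to 108 reads). RBM39 mRNA rose in the indisulam group (log2 fold change 1.22, SE 0.0553, adjusted p 5.41e-09) and in the combination group (1.30, SE 0.0553, adjusted p 1.44e-09). SRPK1 mRNA differed from untreated cells by -0.04 with SPHINX31 (SE 0.0552, adjusted p 0.683). It fell by 0.33 with indisulam (SE 0.0555, adjusted p 3.42e-04) and by 0.23 with the combination (SE 0.0553, adjusted p 0.00318). Protein levels and kinase activity are not seen in these data. The study's separate western blots showed RBM39 protein degraded by indisulam in A549 cells, with some RBM39 still detectable.

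Next, the genes were ranked by level, as CPM per kb of the union of their exons. In untreated cells NRP1 stood at 33.9 ± 0.471 CPM per kb (SD, n = 2 for all means that follow), VEGFB at 21.1 ± 0.802, VEGFC at 13.1 ± 0.292, VEGFA at 10.2 ± 0.116, NRP2 at 4.26 ± 0.00901 and PGF at 0.143 ± 0.0506. This order was the same in all 4 groups, and the libraries of neighboring genes did not overlap within any group. The place of VEGFA depends on the length used, since its annotated exons span 14431 bp and its canonical transcript 3609 bp. Per kb of canonical transcript, a choice made after seeing these lengths, VEGFA stood next after NRP1 in all 4 groups, with 41.0 ± 0.462 CPM per kb in untreated cells, below NRP1 at 69.3 ± 0.961 and above VEGFB at 23.0 ± 0.876. PGF was the lowest of the 6 on either scale.

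**Figure D1:**
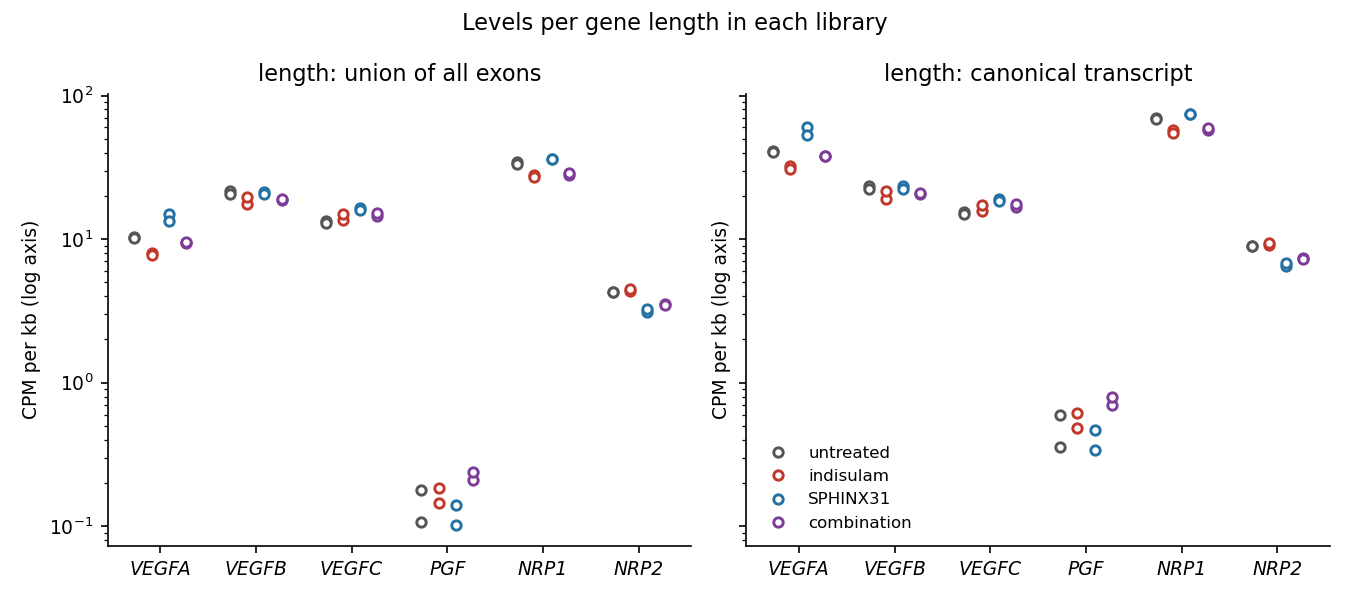
Level of the 6 tested VEGF genes in each of the 8 libraries as CPM per kb on a log axis, per length of all exons (left) and of the canonical transcript (right); each circle is 1 library and its color the group. NRP1 is highest and PGF lowest on both sides, and VEGFA stands below VEGFC on the left and above VEGFB on the right.

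FLT1 (ENSG00000102755, chr13:28300346-28495145, minus strand), the receptor for VEGFA, VEGFB and PGF, had 2 reads in all 8 libraries together. The reads were 1 in untreated replicate 2 and 1 in SPHINX31 replicate 1, and the other 6 libraries had 0. A count of 0 allows up to 3 reads, or 0.0485 to 0.0589 CPM in these libraries, counting error only. FLT1 was therefore not detectable at this depth in any group, and no fold change is given. KDR, the main signaling receptor for VEGFA, had 12 reads in all and at most 3 in a library. FLT4, the receptor for VEGFC, was read in every library at 7.02 to 8.97 CPM.

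Each treatment was then compared with untreated cells. With indisulam, VEGFA, NRP1 and VEGFB fell and none of the 6 tested VEGF genes rose. With SPHINX31, VEGFA and VEGFC rose and NRP2 fell. With the combination, NRP1 and NRP2 fell and VEGFC and PGF rose, and VEGFA did not pass the test. The test was edgeR's quasi-likelihood test across 18661 genes at an adjusted p under 0.05.

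These counts stand against very different backgrounds. Indisulam changed 3 of the 6 genes, where 43.7% of all tested genes passed (20.1% higher and 23.5% lower), a share of the members close to that of all genes. SPHINX31 also changed 3 of 6, where 8.61% of all genes passed (4.94% higher and 3.67% lower). Without TMM scaling the balance of calls for SPHINX31 moved from 57.3% to 72.3% higher, while the same 3 VEGF genes passed with the same signs. The combination changed 4 of 6, where 50% passed (23.8% higher and 26.3% lower). Since the genes were chosen with results of these data known, no test was made of these shares. The median log2 fold change of the 6 genes was -0.06 with indisulam, 0.05 with SPHINX31 and -0.13 with the combination, and that of all genes was -0.00414, -0.00637 and 0.000969.

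**Figure D2:**
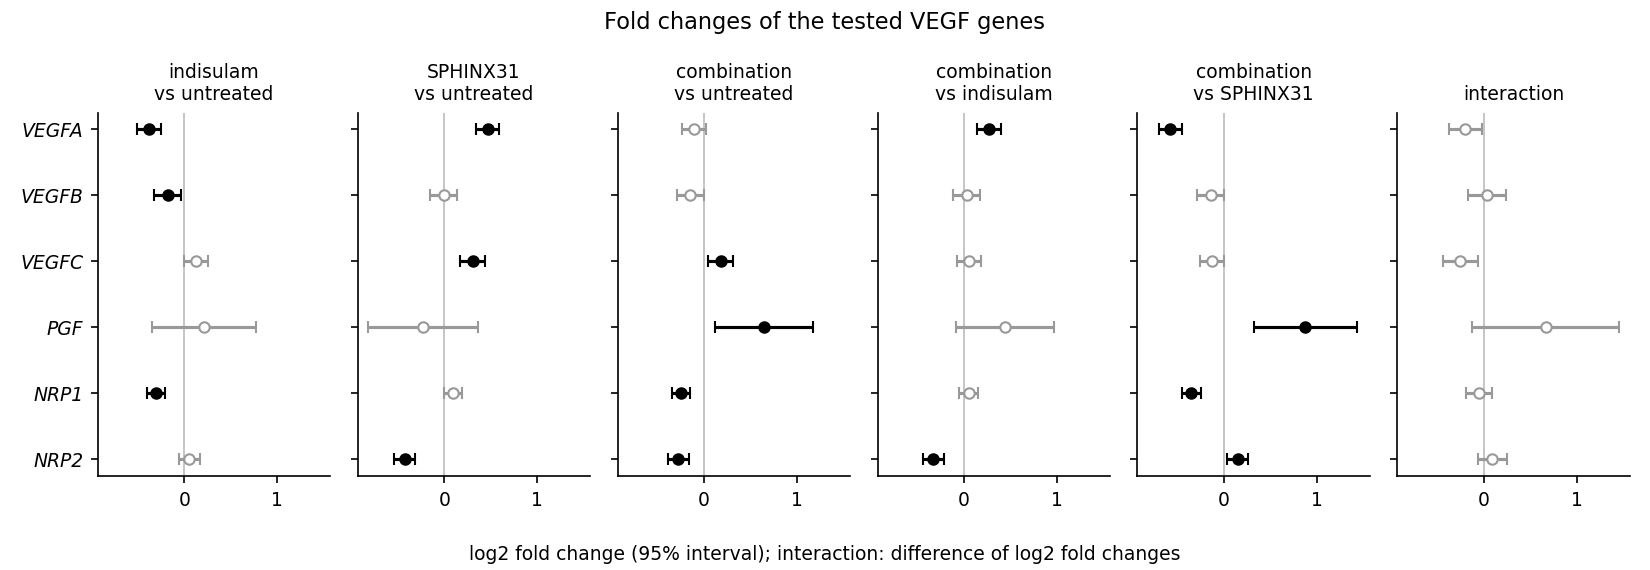
Log2 fold changes of the 6 tested VEGF genes with 95% intervals in 5 comparisons, and the interaction, which is the difference between the effect of indisulam with and without SPHINX31; filled black points passed an adjusted p under 0.05 and open gray points did not. VEGFA is lower with indisulam, higher with SPHINX31 and near 0 with the combination, and no gene passed for the interaction.

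VEGFA (ENSG00000112715, chr6:43770184-43786487, plus strand) gave 149 and 147 CPM in untreated cells, 116 and 111 with indisulam, 217 and 192 with SPHINX31 and 136 and 138 with the combination. The 4 groups did not overlap: both SPHINX31 libraries were highest and both indisulam libraries lowest, with the combination just below untreated cells. With indisulam VEGFA fell by 23.2% (log2 fold change -0.38, SE 0.0585, 95% interval -0.51 to -0.25, adjusted p 1.64e-04). With SPHINX31 it rose by 38.4% (0.47, SE 0.0580, 0.34 to 0.59, adjusted p 3.07e-04). The combination differed from untreated cells by -0.11 (SE 0.0582, -0.24 to 0.02, adjusted p 0.132). In bulk RNA, fewer cells of a kind and less RNA per cell cannot be told apart. The calls for VEGFA in both single treatments held in every alternative and without any 1 library. Of its 14431 bp of exons, 188 bp are shared with a lncRNA on the other strand, which had 4 to 18 reads in a library.

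**Figure D3:**
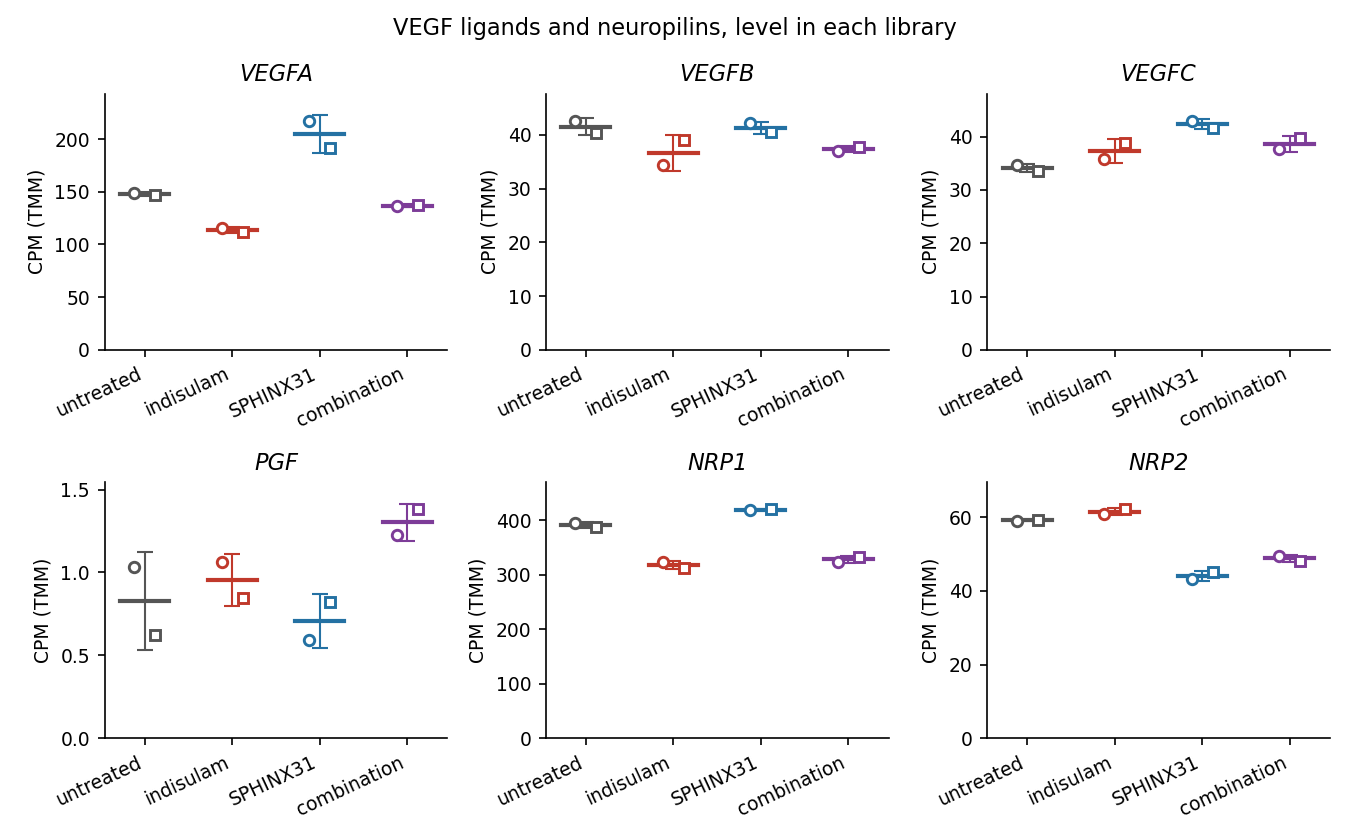
CPM (TMM-scaled) of the 6 tested VEGF genes in each library; circles are replicate 1 and squares replicate 2, thick lines are group means and error bars the SD of 2 libraries. VEGFA separates all 4 groups, NRP1 is lower in both groups with indisulam and NRP2 is lower in both groups with SPHINX31.

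VEGFB (ENSG00000173511, chr11:64234584-64239264, plus strand), a ligand for FLT1 and NRP1, gave 42.6 and 40.4 CPM in untreated cells, 34.3 and 39.0 with indisulam, 42.1 and 40.5 with SPHINX31 and 37.1 and 37.8 with the combination. All 4 libraries with indisulam lay below all 4 libraries without it. The fall with indisulam was 11.7% (log2 fold change -0.18, SE 0.0668, adjusted p 0.0439), just past the threshold. This call was lost without untreated replicate 1 (adjusted p 0.245), untreated replicate 2 (0.0713), indisulam replicate 1 (-0.09 on the log2 scale, 0.403), combination replicate 1 (0.0624) or combination replicate 2 (0.0586), and with the replicate block (0.0591) and 4 further settings, DESeq2 among them (0.0887). VEGFB differed from untreated cells by -0.01 with SPHINX31 (95% interval -0.15 to 0.14, adjusted p 0.965) and by -0.15 with the combination (-0.29 to -0.01, adjusted p 0.0776), which passed when the groups compared were fitted alone (0.0462) and with the replicate block after exchanging the indisulam numbers (0.0348).

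VEGFC (ENSG00000150630, chr4:176683538-176792922, minus strand), the lymphatic growth factor, gave 34.7 and 33.6 CPM in untreated cells, 35.7 and 38.9 with indisulam, 42.9 and 41.6 with SPHINX31 and 37.6 and 39.7 with the combination. Both SPHINX31 libraries were above the other 6 libraries, and both untreated libraries were below them. VEGFC rose by 23.7% with SPHINX31 (log2 fold change 0.31, SE 0.0615, adjusted p 0.00788) and by 13.1% with the combination (0.18, SE 0.0616, adjusted p 0.0279). The difference with indisulam was 0.13 (95% interval -0.01 to 0.26, adjusted p 0.117), and it passed with offsets for GC content (0.16, adjusted p 0.0306) and with these offsets and the replicate block (0.0312). The call with SPHINX31 was lost without untreated replicate 1 (adjusted p 0.0571), untreated replicate 2 (0.0898) or SPHINX31 replicate 1 (0.0571). That with the combination was lost without untreated replicate 1 (0.0734), untreated replicate 2 (0.160) or combination replicate 2 (0.161).

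PGF (ENSG00000119630, chr14:74941834-74955626, minus strand), placental growth factor, was scarce. Its read counts were 64 and 37 in untreated cells, 62 and 43 with indisulam, 32 and 48 with SPHINX31 and 70 and 79 with the combination. As CPM these were 1.04 and 0.621, 1.07 and 0.844, 0.591 and 0.820, and 1.22 and 1.38. Both combination libraries were the highest of the 8, and the untreated libraries overlapped those of both single treatments. PGF rose by 56.6% with the combination (log2 fold change 0.65, SE 0.245, 95% interval 0.12 to 1.18, adjusted p 0.0417). The value was 1.07 without untreated replicate 1, and the call was lost without untreated replicate 2 (0.33, adjusted p 0.337), combination replicate 1 (0.0769) or combination replicate 2 (0.182), and with DESeq2 (0.127), the replicate block (0.0533), GC offsets (0.0514) or both of these (0.0643). PGF did not pass with indisulam (95% interval -0.35 to 0.77) or with SPHINX31 (-0.82 to 0.36), where the intervals were wide.

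NRP1 (ENSG00000099250, chr10:33177492-33336262, minus strand), the co-receptor that binds VEGFA and SEMA3A, was the most abundant of the 7 per length. It stood at 395 and 387 CPM in untreated cells, 323 and 312 with indisulam, 418 and 419 with SPHINX31 and 324 and 333 with the combination. All 4 libraries with indisulam lay below all 4 libraries without it. NRP1 fell by 18.8% with indisulam (log2 fold change -0.30, SE 0.0455, adjusted p 1.41e-04) and fell by 16.0% with the combination (-0.25, SE 0.0455, adjusted p 4.36e-04). With SPHINX31 the difference was 0.10 (95% interval 0.00 to 0.20, adjusted p 0.204), although both libraries were above both untreated libraries. The calls with indisulam and with the combination held in every alternative and without any 1 library. Of the NRP1 exons, 4.87% are shared with a lncRNA on the other strand that had 7 to 37 reads in a library.

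NRP2 (ENSG00000118257, chr2:205681990-205798133, plus strand), the co-receptor for VEGFC and for SEMA3F, gave 59.1 and 59.2 CPM in untreated cells, 60.7 and 62.1 with indisulam, 43.1 and 45.1 with SPHINX31 and 49.4 and 48.2 with the combination. All 4 libraries with SPHINX31 lay below all 4 libraries without it. NRP2 fell by 25.5% with SPHINX31 (log2 fold change -0.42, SE 0.0528, adjusted p 3.22e-04) and fell by 17.5% with the combination (-0.28, SE 0.0525, adjusted p 6.40e-04). The difference with indisulam was 0.05 (95% interval -0.06 to 0.17, adjusted p 0.427). Both calls held in every alternative and without any 1 library. The level of NRP1 relative to NRP2, per kb of exons, was 8.07 and 7.89 in untreated cells, 6.42 and 6.06 with indisulam, 11.7 and 11.2 with SPHINX31 and 7.91 and 8.33 with the combination. This ratio was therefore lowest in both indisulam libraries and highest in both SPHINX31 libraries, while untreated and combination libraries overlapped.

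To see what each agent added to the other, the combination was compared with the single treatments. These comparisons share the combination libraries with the comparison above. Adding SPHINX31 to indisulam raised VEGFA (log2 fold change 0.27, SE 0.0586, adjusted p 0.0139) and lowered NRP2 (-0.33, SE 0.0527, adjusted p 0.00228). For both genes the 2 combination libraries lay outside the 2 indisulam libraries. Among all genes 7.50% passed (3.17% higher and 4.32% lower), and total counts alone in place of TMM moved the balance from 42.3% to 65.4% higher. NRP2 held in every alternative. VEGFA was lost without indisulam replicate 2 (adjusted p 0.0769), combination replicate 1 (0.0668) or combination replicate 2 (0.102).

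Adding indisulam to SPHINX31 lowered VEGFA by -0.58 on the log2 scale (SE 0.0582, adjusted p 2.98e-06) and NRP1 by -0.35 (SE 0.0455, adjusted p 2.99e-05), and both held in every alternative. It raised PGF (0.88, SE 0.256, adjusted p 0.0118) and NRP2 (0.15, SE 0.0532, adjusted p 0.0346). Among all genes 49.9% passed (23.4% higher and 26.5% lower), which is near the 4 of 6 members. VEGFB did not pass (-0.14, adjusted p 0.0910), but did with GC offsets (0.0381), with these and the replicate block (0.0432) and with the exchanged block (0.0424). PGF was lost without SPHINX31 replicate 1 (0.0937) or combination replicate 2 (0.0751). NRP2 was lost without untreated replicate 1 (0.0611), untreated replicate 2 (0.0614), SPHINX31 replicate 1 (0.110), combination replicate 1 (0.107) or combination replicate 2 (0.0615), and in 2 further settings (0.0662 and 0.107).

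For VEGFA the single effects, -0.38 and 0.47, sum to 0.09, and the combination stood at -0.11. For NRP1 the sum was -0.20 and the combination -0.25, and for NRP2 the sum was -0.37 and the combination -0.28. The difference between sum and combination is the interaction, and none of the 6 genes passed for it in edgeR's test. The smallest unadjusted p-values were 0.0115 for VEGFC (interaction -0.25, adjusted p 0.473) and 0.0306 for VEGFA (-0.20, adjusted p 0.545). PGF had the widest interval (0.67, 95% interval -0.12 to 1.46). Among all genes 0% passed for the interaction, 1584 had an unadjusted p under 0.05 and DESeq2 called 31. The intervals of VEGFB (-0.17 to 0.24), NRP1 (-0.19 to 0.09) and NRP2 (-0.07 to 0.25) bound any departure from additivity in these libraries.

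The share of VEGFA in the ligand mRNA was also followed. Over the summed level of the 4 ligands per kb of exons, VEGFA made up 22.7% and 23.3% in untreated cells, 20.4% and 18.1% with indisulam, 28.4% and 26.7% with SPHINX31 and 22.0% and 21.6% with the combination. Per kb of canonical transcript the group means were 51.5%, 45.7%, 57.4% and 49.6%. The share was highest with SPHINX31 and lowest with indisulam on both scales, without overlap between those 2 groups. The share of VEGFB, the largest per kb of exons, was lowest with SPHINX31 (40.4% and 41.2%, against 47.6% and 47.0% in untreated cells). The level of VEGFB itself was 21.0 ± 0.595 CPM per kb with SPHINX31, against 21.1 ± 0.802 in untreated cells. The summed level of the 4 ligands was 51.4 ± 2.16 with SPHINX31, against 44.5 ± 1.26 in untreated cells.

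The libraries' profile of each abundant VEGF gene was then compared with 9936 candidate genes whose average log2 CPM reached 3, by Pearson correlation of log2 CPM over the 8 libraries. These values describe libraries that share their treatments and carry no test. Closest to VEGFA were STS, the steroid sulfatase (r = 0.996), VDR, the vitamin D receptor (0.992), and BTC, an EGF-family ligand (0.990). EGFL7 (0.991), a secreted endothelial factor, was closest to VEGFB, ahead of SEPTIN9 and SMDT1 (both 0.987). For VEGFC the nearest were SH3RF1 (0.961), RNF19B (0.956) and KICS2 (0.955), the loosest match of the 5. NRP1 was followed by EVI5, MTO1 (both 0.997) and AZI2 (0.996), and NRP2 by NTS, which encodes neurotensin, TM4SF1 (both 0.991) and CLN6 (0.989).

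Other genes of the system were described by lists, beginning with the rest of the VEGF family. The ligand VEGFD rose with indisulam (log2 fold change 1.28, SE 0.206, adjusted p 2.35e-04) and with the combination (1.47, SE 0.201), from 0.833 ± 0.103 CPM in untreated cells to 2.02 ± 0.278 and 2.31 ± 0.472 CPM. It was below the level required for naming and is given because its list has only 3 genes. FLT4 fell with indisulam (-0.26, SE 0.0929, adjusted p 0.0388) and with the combination (-0.27, SE 0.0925, adjusted p 0.0265). Neither passed with SPHINX31.

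The semaphorins and plexins share the neuropilins with the VEGF ligands. Of their 12 genes, all tested, 6 fell with indisulam, 1 with SPHINX31 and 8 with the combination, and none rose. Among all tested genes 23.5%, 3.67% and 26.3% fell. The median log2 fold changes of the list were -0.22, -0.19 and -0.38, against medians near 0 for all genes. PLXND1, a receptor for SEMA3E, fell by 0.61 with indisulam, by 0.20 with SPHINX31 and by 0.71 with the combination on the log2 scale. Its ligand SEMA3E fell by 0.50 with indisulam, and PLXNA2, a partner of the neuropilins, fell by 0.53 with the combination. Both genes were lower in both groups with indisulam. SEMA3E stood at 8.60 ± 0.265 CPM in untreated cells, 6.10 ± 0.206 with indisulam and 6.21 ± 0.254 with the combination. For PLXNA2 these levels were 31.8 ± 1.17, 24.5 ± 0.0625 and 22.1 ± 0.968 CPM. SEMA3G, at few reads, had the lowest value of the list (-1.12 with indisulam and -1.39 with the combination). With SPHINX31 it stood at 0.360 ± 0.195 CPM, against 0.759 ± 0.0891 CPM in untreated cells, and did not pass.

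Among the SRPK1 and SR-protein genes, 7 of 8 were tested. With indisulam 4 rose and 2 fell, with the combination 3 rose and 2 fell, and with SPHINX31 1 fell. The shares of all genes were 20.1% higher and 23.5% lower with indisulam, 23.8% and 26.3% with the combination and 3.67% lower with SPHINX31, and the medians of the list were 0.30, 0.18 and -0.04 in that order. SRSF1, the substrate tied to VEGFA splicing, rose from 75.4 ± 0.828 CPM to 129 ± 2.02 with indisulam (log2 fold change 0.78, SE 0.0514, adjusted p 1.02e-07) and to 128 ± 0.0374 with the combination (0.76). CLK1, another kinase of SR proteins, rose by 0.68 and 0.89. SRSF6 fell by 0.21 in both, and SRPK1 itself by 0.33 and 0.23. With SPHINX31 only SRSF2 passed (-0.26, SE 0.0716, adjusted p 0.0419), and SRSF1 stood at -0.15 (adjusted p 0.0857). WT1, a transcription factor that acts on the SRPK1 gene, was not tested for lack of reads.

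Oxygen sensing controls VEGFA transcription through the hypoxia-inducible factors. Of 9 tested genes, 2 rose and 4 fell with indisulam and with the combination, and 0 passed with SPHINX31. Over all genes, 43.7% passed with indisulam, 50% with the combination and 8.61% with SPHINX31, and the medians of the list were -0.20, -0.21 and 0.06. HIF1AN, which hydroxylates HIF1A, fell by 0.67 and 0.92 on the log2 scale. HIF1A itself fell from 672 ± 25.3 CPM to 472 ± 3.62 with indisulam (-0.51, SE 0.0579, adjusted p 1.20e-05) and to 409 ± 27.3 with the combination (-0.72, SE 0.0581, adjusted p 3.84e-07), and with SPHINX31 was at 702 ± 42.9 (0.06, adjusted p 0.557). VHL fell by 0.52 with indisulam, from 89.6 ± 1.61 CPM to 62.4 ± 1.34. It stood at 64.3 ± 2.81 CPM with the combination. EPAS1 rose by 0.14 and 0.38, and ARNT2 by 0.27 and 0.35.

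Of 30 tested genes of signaling downstream of the receptors, 4 rose and 9 fell with indisulam, 1 rose and 1 fell with SPHINX31 and 7 fell with the combination. The 13 calls with indisulam are near the 43.7% of all genes. With SPHINX31, 4.94% of all genes rose and 3.67% fell, and the list was near these shares. With the combination 0 of the 30 rose, against 23.8% of all genes, and 7 fell, against 26.3%. Calls with the combination were thus fewer than the 50% of all genes, a difference that was not tested. SH2D2A, an adaptor of KDR, fell by 0.85 with indisulam and by 1.23 with the combination, and PIK3CA, the catalytic subunit of PI3-kinase, fell by 0.57 and 0.80. MAP2K1 and RAC1 rose by 0.17 and 0.16 with indisulam. With SPHINX31, PTGS2, the inducible cyclooxygenase, rose from 145 ± 5.79 to 209 ± 6.07 CPM (log2 fold change 0.53, SE 0.0609, adjusted p 1.91e-04), and CDC42 fell by 0.21 on the log2 scale.

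For ligand processing and retention, 7 of 10 genes were tested, of which 2 rose and 3 fell with indisulam, 0 passed with SPHINX31, and 2 rose and 2 fell with the combination. All genes passed at 43.7%, 8.61% and 50%, and the 4 of 7 with the combination are near the last of these. The calls with indisulam, 2 higher and 3 lower of 7, made up a larger share than that of all genes. This difference was not tested. FURIN, a protease that matures VEGFC, fell by 0.77 with indisulam and by 0.97 with the combination on the log2 scale. HSPG2, the heparan sulfate proteoglycan perlecan, fell by 0.79 and 0.97. PCSK7, a related protease, rose by 0.48 and 0.43, and MMP2 by 0.47 and 0.53.

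Of 12 tested angiogenic factors outside the family, 3 rose and 0 fell with SPHINX31, with a median log2 fold change of 0.11: CXCL8 (0.38), PDGFA (0.31) and FGF2 (0.29, named to complete the count). Over all genes 4.94% rose and 3.67% fell with SPHINX31. With indisulam 1 rose and 3 fell, and likewise with the combination, below the 43.7% and 50% of all genes. EFNA1 rose by 0.30 and 0.31, its receptor EPHA2 fell by 0.34 in both, CXCL8 fell by 0.35 with indisulam and ANGPTL4 fell by 0.99 with the combination, where its 2 untreated libraries lay far apart (8.99 ± 3.72 CPM).

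**Figure D4:**
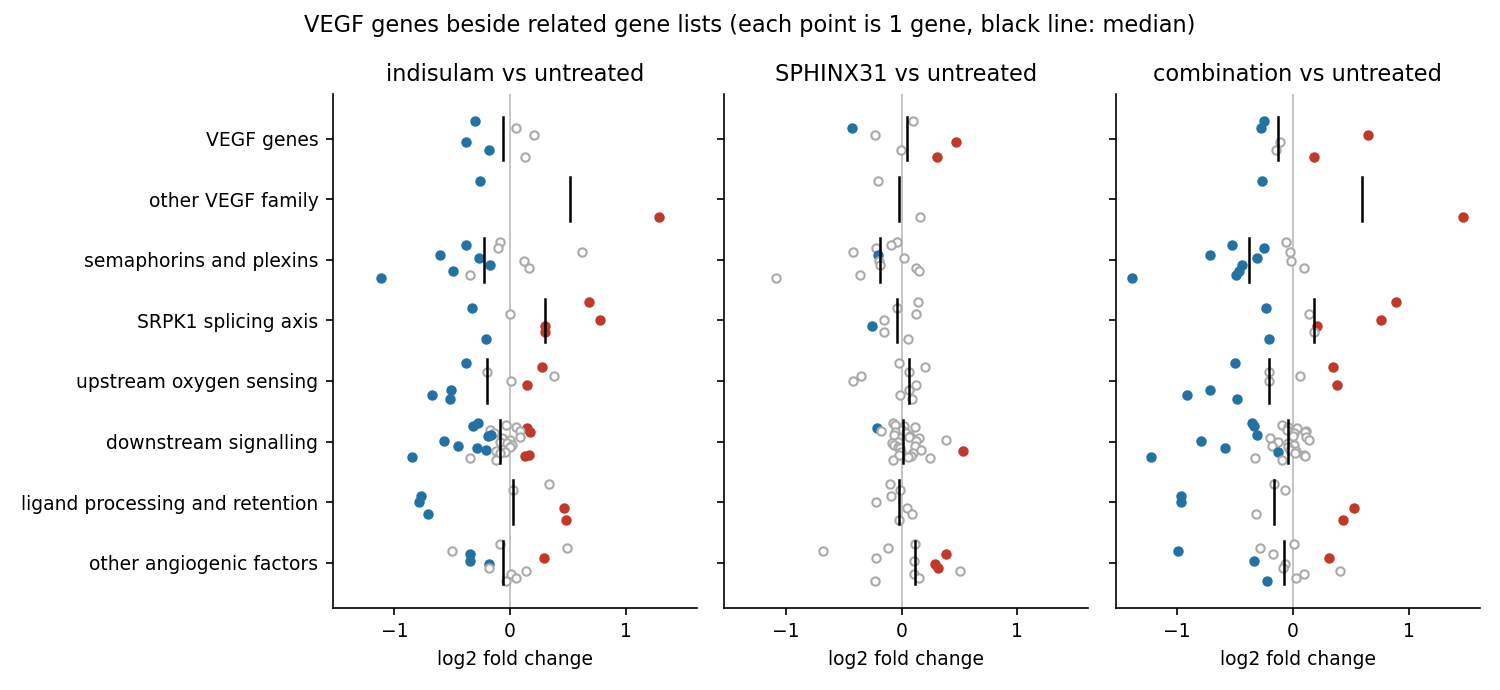
Log2 fold change of each tested gene in the 6 VEGF genes and 7 related lists for the 3 treatments against untreated cells; red and blue points passed as higher and lower, open points did not, and black lines are medians. Most points of the semaphorin and plexin list lie left of 0, and in the SPHINX31 panel few points of any list are filled outside the VEGF genes and the other angiogenic factors.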

How the data were processed

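RNA was sequenced from A549 cells in 8 libraries. The authors deposited raw read counts per Ensembl gene, made with HISAT2 2.2.1 and HTSeq per the submitters' processing notes, on GRCh38 from stranded poly(A) libraries; the strand setting of counting and the annotation release are not given in the sources used here. Rows that name no gene (14.0% to 17.0% of reads: no feature, ambiguous or not unique) were left out. Testing of the deposited counts used edgeR 4.0.16 under R 4.3.3 (TMM factors 0.978 to 1.02, filterByExpr, glmQLFit and glmQLFTest over all 4 groups without covariates, Benjamini-Hochberg adjustment over 18661 tested genes, threshold 0.05). There were 4 residual degrees of freedom and the common biological coefficient of variation was 0.0491. CPM were TMM-scaled, and log2 CPM used a prior count of 2. Gene positions, symbols and lengths came from GENCODE release 44 on GRCh38, which held 99.7% of tested genes. The scripts were tested on simulated data.

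The members and lists were chosen with earlier results of these data known. The text names all 7 VEGF genes, SRPK1 and RBM39. For each VEGF gene whose average log2 CPM reached 3 it names the 3 genes of that level with the closest profile, and for each list up to 2 called genes per direction, of average log2 CPM 1 or more, in each treatment against untreated cells. Same-numbered libraries of 2 groups did not deviate together throughout, so the replicate number was not used as a block. Alternatives were RLE factors, total counts alone, DESeq2 1.42.0, filters of 1 count in any library and of 10 in every library, only the libraries compared, the block, GC offsets in 50 bins, block with GC offsets, leaving out each library, and other gene lengths. Canonical transcript length and a block with the indisulam numbers exchanged were added after seeing the data.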

Additional observations from a re-analysis of the deposited data

Results flagged for a closer look

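VEGFC was singled out because its libraries with indisulam lay on opposite sides of those without it in the absence and in the presence of SPHINX31. Both indisulam libraries (35.7 and 38.9 CPM) were above both untreated libraries (34.7 and 33.6 CPM), whereas both combination libraries (37.6 and 39.7 CPM) were below both SPHINX31 libraries (42.9 and 41.6 CPM). The difference between these effects, the interaction, was -0.255 on the log2 scale (SE 0.0871, 95% interval -0.44 to -0.07, unadjusted p 0.0115). It did not pass edgeR's test across all genes (adjusted p 0.473). Neither of the effects passed by itself (0.13, adjusted p 0.117, and -0.13, adjusted p 0.0952).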

How the results depend on the processing

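Of 640 fold changes of the 6 genes over all alternatives and left-out libraries, 587 kept direction and call, 35 lost the call, 7 gained it, 11 uncalled values changed sign, and no called value reversed. The 587 include values that were uncalled at first and stayed so, which had no call to lose. They also include fits in which the library left out belonged to neither group compared. The calls that held throughout were VEGFA and NRP1 with indisulam, VEGFA and NRP2 with SPHINX31, NRP1 and NRP2 with the combination, NRP2 for the combination against indisulam, and VEGFA and NRP1 for the combination against SPHINX31. The cause of the lost calls was not tested.

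Over all genes, SPHINX31 against untreated gave 2593 calls with GC offsets and 2630 with the exchanged block against 1606, and the combination against indisulam 2222 and 2252 against 1399. The interaction gave 31 with DESeq2, 94 with the loose filter, 15 with GC offsets and 12 with the exchanged block against 0. Leaving out 1 library gave 482 (without untreated replicate 1; 539 without untreated replicate 2 and 697 without SPHINX31 replicate 1) to 1810 calls for SPHINX31 against untreated and 440 (without combination replicate 2; 609 without combination replicate 1 and 696 without indisulam replicate 1) to 1612 for the combination against indisulam. The ranges were 5887 to 8379 for indisulam, 7209 to 9565 for the combination, 7340 to 9523 for the combination against SPHINX31 and 0 to 1 for the interaction. VEGF genes called ranged from 2 to 3 for indisulam and for SPHINX31, 2 to 4 for the combination (2 without untreated replicate 2 or combination replicate 2), 1 to 2 against indisulam (1 without indisulam replicate 2 or either combination library) and 2 to 4 against SPHINX31 (2 without SPHINX31 replicate 1 or combination replicate 2).

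Same-numbered libraries correlated from -0.566 (untreated and indisulam) to 0.452 (untreated and SPHINX31), so the numbers were not taken as pairs. With the replicate block, 7851 genes were called for indisulam, 1330 for SPHINX31, 9077 for the combination, 1169 against indisulam and 9074 against SPHINX31, and VEGFB with indisulam and PGF with the combination lost their calls. With the indisulam numbers exchanged in the block, 8952 and 10014 genes were called for indisulam and for the combination.

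VEGFA had rank 4 of the 7 by exon union or longest transcript and rank 2 by canonical transcript. Depth limits PGF and FLT1, and with 2 technical libraries per group the spread between cultures is unknown.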
